A study of Mus musculus with 33 samples.

Results

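The genes described are 10 members of the striated and smooth muscle thin filament: the troponin genes Tnnt2, Tnni1, Tnni3 and Tnnc1, the muscle actins Actc1, Acta1 and Acta2, the tropomyosins Tpm1 and Tpm2, and the actin-binding gene Tagln. They were chosen by symbol, with earlier results of these data known, and all 10 were found among the 14862 gene rows of the count table. Levels are given as CPM, the reads of a gene per 1000000 counted reads of the cell. A group's level is the sum of its cells' reads over the sum of their totals.

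The thin filament is a polymer of actin along which tropomyosin runs as a coiled coil, with a troponin complex at each tropomyosin. Troponin C binds calcium, troponin I holds the filament in the inhibited state, and troponin T ties the complex to tropomyosin. In the rodent heart the slow skeletal troponin I gene, Tnni1, is known as the fetal form and the cardiac gene, Tnni3, as the adult form. Cardiac muscle of the mouse is known to use mostly Actc1, while Acta1 is the skeletal and Acta2 the smooth muscle actin, and both of the latter are known in the developing heart.

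The study profiled single ventricular cells of mice that carry mAG-hGem, a fluorescent geminin fusion from the FUCCI cell cycle reporter that accumulates after the start of S phase. The 33 cells fall into 4 groups: 10 mAG-hGem positive and 11 negative cells at embryonic day 14.5 (E14.5), and 6 positive and 6 negative cells at postnatal day 5 (P5). All groups carried the reporter. Strain, sex and animals are not given in the labels, so each group counts as 1 sample and no test between groups was made. Per the labels' protocols, hearts were dissociated with enzymes, cells were sorted by fluorescence, and RNA was copied by antisense amplification. A cell was accepted when PCR of its cDNA found Tnnt2. Tnnt2 is a member, so its presence was a condition of entry. Intervals below are 95% intervals for counting error only. Amplified reads are not independent molecules, and the spread between cells is far wider.

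Cells were checked against markers of heart cell types that leave out the members. In 25 cells the cardiomyocyte markers (such as Myh6, Ttn and Actn2) exceeded each other marker list, at 8720 to 92375 CPM in sum. In these cells endothelial and fibroblast markers stayed at or below 26.1 CPM. Smooth muscle and pericyte markers reached 1069 CPM in N3, epicardial markers 621 in G25 and leukocyte markers 379 in N21. The 25 cells are called cardiomyocyte-led below, and cells go by their titles. In the other 8 cells another marker list exceeded the cardiomyocyte list, and apart from N10 they went against the label cardiomyocyte. E14.5 negative cell N10 held both kinds of marker, with 46775 CPM of fibroblast beside 7216 CPM of cardiomyocyte markers. Its members summed to 21546 CPM, near the median of its group at 20687. P5 positive cell L2P12 had 4615 CPM of endothelial and 76.5 CPM of cardiomyocyte markers. All 6 P5 negative cells had 0.760 to 394 CPM of cardiomyocyte markers, with Myh7 and Nkx2-5 at 0, and up to 13278 CPM of endothelial or, in cell L2N12, 19501 CPM of fibroblast markers. Red blood cell markers were at 2850 CPM in L1N3 and 2939 in L2N10, and epicardial markers at 3422 CPM in L2N12. Ratios are given over all cells, and without N10 or L2P12 as well where that ended a call, turned a direction or moved the value by over 1.5 times. The P5 negative group has no cardiomyocyte-led cell, so its comparisons cannot be given without such cells. Totals ran from 2.55 to 38.5 M reads per cell, where 1 M is 1000000.

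The actin genes are close copies, which bears on how far their reads can be told apart. The first 60 coding bases of the 3 muscle actins, on GRCm38 in the GENCODE M21 annotation, show this. Capitals mark bases that differ from Actc1, of which Acta1 has 9 and Acta2 has 14.
Actc1: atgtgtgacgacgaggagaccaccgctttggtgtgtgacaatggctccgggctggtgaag
Acta1: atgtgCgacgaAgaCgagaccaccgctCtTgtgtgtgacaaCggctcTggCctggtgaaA
Acta2: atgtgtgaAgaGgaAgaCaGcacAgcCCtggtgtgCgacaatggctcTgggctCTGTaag

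Over the whole coding sequence of 1134 bases, Actc1 was identical to Acta1 at 86.2% of bases and to Acta2 at 82.5%. The longest run shared without a mismatch was 29 bases between Actc1 and Acta1 and 23 bases between Actc1 and Acta2. How reads that fit more than one gene were counted is not given in the sources used here.

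The troponin I genes are less alike, at 71.8% of 507 aligned coding bases. The start of Tnni3 codes for the amino-terminal extension that is particular to cardiac troponin I, a known target of protein kinase A. It is shown beside the start of Tnni1, with the 96 bases that had no counterpart in the alignment, bases 15 to 110 or 32 codons in length, in capitals.
Tnni3: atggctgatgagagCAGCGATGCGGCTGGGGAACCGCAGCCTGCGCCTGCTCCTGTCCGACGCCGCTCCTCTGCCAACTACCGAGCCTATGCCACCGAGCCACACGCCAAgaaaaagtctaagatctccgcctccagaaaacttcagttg
Tnni1: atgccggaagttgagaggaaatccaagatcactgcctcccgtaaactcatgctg

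Tnni1 lies on chromosome 1 (chr1:135779434-135810989, plus strand), upstream of Tnnt2 on the same strand (chr1:135836354-135852260). Tnni3 lies on chromosome 7 (chr7:4518305-4524229, minus strand). Its annotated span shares 1297 bases with Dnaaf3 on the same strand, which had at most 0.222 CPM in any cell. Tnnc1 (chr14:31208312-31211729, plus strand) lies wholly within Nisch on the other strand. Whether the counting used strand is not given in the sources used here.

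Per kilobase of transcript, Actc1 ranked first and Tnnt2 the second among the members in both E14.5 groups and in P5 positive cells. Actc1 gave 7620 CPM per kb in E14.5 positive cells, against 3603 for Tnnt2 and 796 for Tnnc1, the third. In P5 positive cells Tnnt2 gave 3514 CPM per kb, followed by Tpm1 at 3219, Tnnc1 at 2784, Tnni3 at 2623 and Tnni1 at 1641. Lengths were those of the longest coding transcript of each gene with a RefSeq entry. For Tpm1 this was a transcript of 2890 bases and 245 codons. A shorter Tpm1 transcript would raise its value, so the order of Tnnt2 and Tpm1 at P5 depends on that choice. Which transcripts the cells used was not tested. Acta1, Tpm2 and Tagln held the 3 lowest ranks in these 3 groups, each at or below 19.3 CPM per kb.

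**Figure D1:**
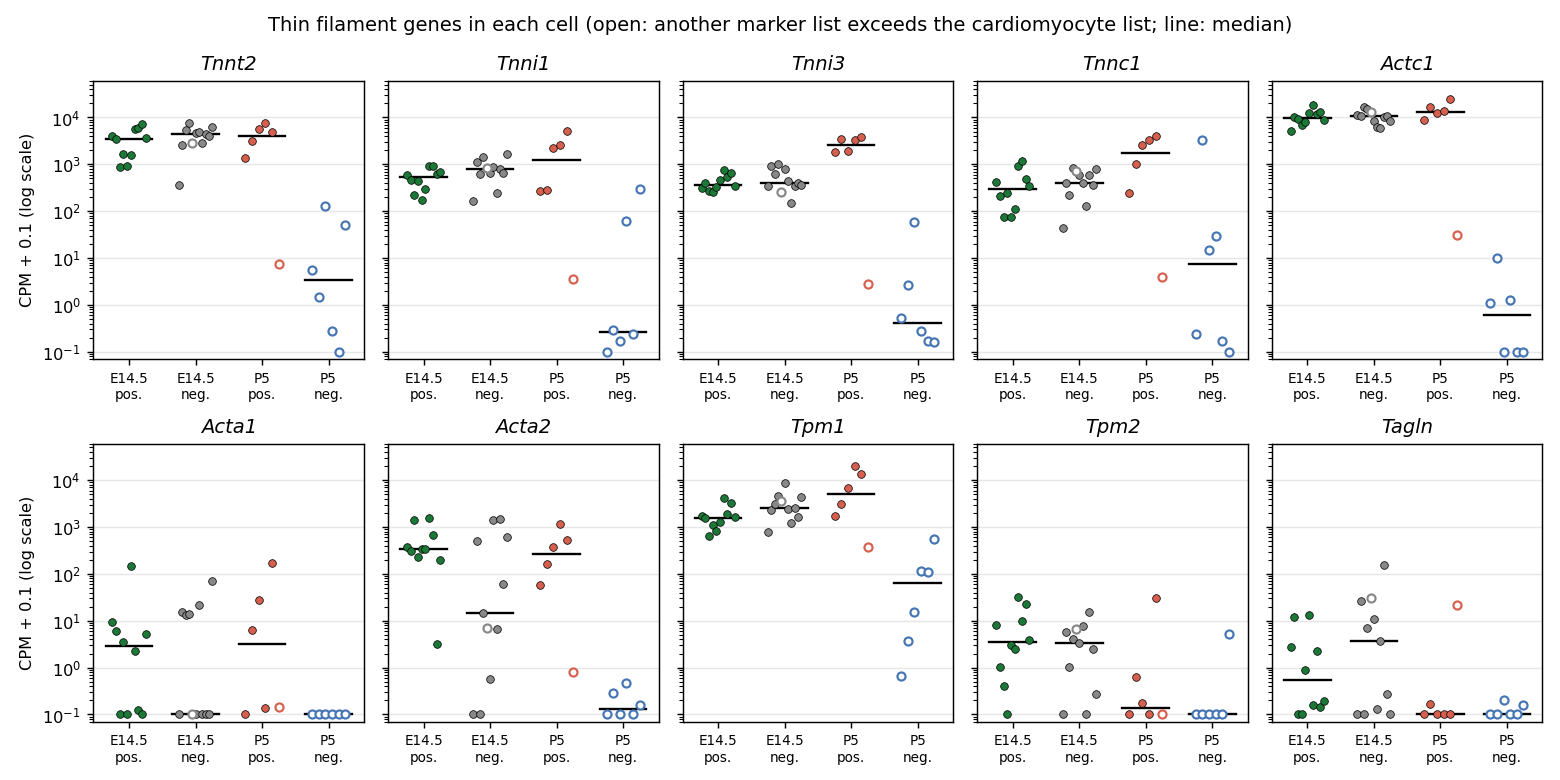
Level of each of the 10 genes in each of the 33 cells, as CPM + 0.1 on a log axis, by group; the line is the group's median, and open circles are the 8 cells in which another marker list exceeded the cardiomyocyte list. Tnni3 is the gene whose filled P5 positive cells, at 1824 to 3855 CPM, lie above every E14.5 cell.

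Troponin T was near level between ages. Tnnt2 codes for cardiac troponin T. It ran from 871 to 7335 CPM in E14.5 positive cells (median 3494) and from 362 to 7633 CPM in E14.5 negative cells (median 4425). At P5 it was 1390 CPM in L1P5, 3162 in L2P3, 5778 in L2P7, 7576 in L2P8, 4899 in L2P10 and 7.24 in L2P12. Apart from L2P12 the P5 cells lay within the range of all E14.5 cells together. E14.5 cells N3, G5 and G8, at 362, 871 and 922 CPM, lay below L1P5. The group levels were 4323, 4295 and 4216 CPM, a log2 ratio of -0.04 for P5 positive over E14.5 positive cells, or 0.37 over cardiomyocyte-led cells alone, that is without L2P12, and -0.61 without L2P8.

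The cardiac troponin I gene set the P5 cells apart. Tnni3 ran from 253 to 750.0 CPM in E14.5 positive cells (median 369.9) and from 149.8 to 1012 CPM in E14.5 negative cells (median 403). In P5 positive cells it was 1824 CPM in L1P5, 3538 in L2P3, 1921 in L2P7, 3336 in L2P8, 3855 in L2P10 and 2.67 in L2P12. Each of the 5 cardiomyocyte-led P5 cells was above each of the 21 E14.5 cells, and the gap between the lowest of the first and the highest of the second was 1.803-fold. The group level was 2392 CPM (95% 2382 to 2402) at P5 and 477 CPM (95% 473 to 480.0) at E14.5, a log2 ratio of 2.33 (95% 2.32 to 2.34), or 2.73 in cardiomyocyte-led cells alone.

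Tnni3 was the only member whose cells did not overlap in this way. Of all genes tested, 0.828% had all 5 cardiomyocyte-led P5 positive cells above all 10 E14.5 positive cells and 1.25% had them all below. Against all 21 E14.5 cells these shares were 0.397% and 0.194%. Among the members, 1 of 10 was above in both settings and 0 of 10 were below.

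Tnni1, the fetal troponin I gene, differed widely among the P5 cells. It ran from 174 to 937 CPM in E14.5 positive cells (median 527) and from 167 to 1657 CPM in E14.5 negative cells (median 778). At P5 it was 264 CPM in L1P5, 280.4 in L2P3, 2257 in L2P7, 2599 in L2P8, 5112 in L2P10 and 3.47 in L2P12. Cells L1P5 and L2P3 thus lay inside the E14.5 range, and L2P7, L2P8 and L2P10 lay above it. The group log2 ratio for P5 positive over E14.5 positive cells was 1.51 (95% 1.501 to 1.524), or 1.92 in cardiomyocyte-led cells.

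**Figure D2:**
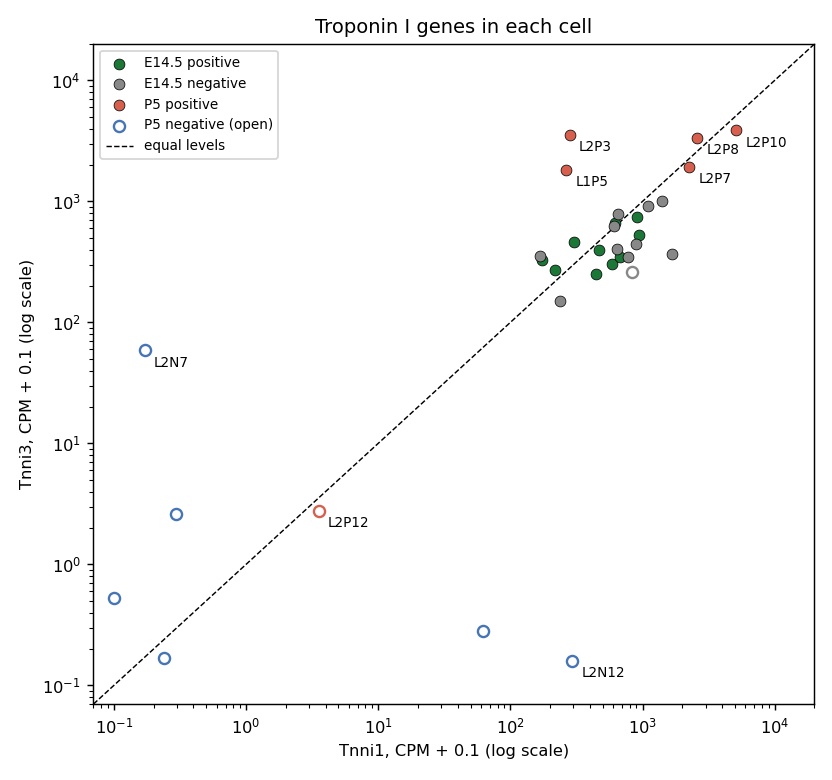
Tnni3 against Tnni1 in each cell, as CPM + 0.1 on log axes, with a dashed line of equal levels; open circles are cells in which another marker list exceeded the cardiomyocyte list. P5 cells L1P5 and L2P3 lie far above the line, at Tnni1 of 264 and 280.4 CPM, and L2P7, L2P8 and L2P10 lie near it, at 2257 to 5112 CPM.

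The share of Tnni3 among the reads of both troponin I genes split the P5 cells accordingly. It was 87.3% in L1P5 and 92.7% in L2P3, and 46.0% in L2P7, 56.2% in L2P8 and 43.0% in L2P10. At E14.5 it ran from 33.8% to 65.5% in positive cells (median 45.3%) and from 18.2% to 67.7% in negative cells (median 38.6%). So L2P7, L2P8 and L2P10 had shares inside the E14.5 range, while both of their troponin I genes were above the E14.5 levels. L1P5 had the fewest reads of all 33 cells, at 2.55 M, with 3991 genes detected against 6074 in L2P3. It is the only P5 positive cell with a title in L1, and the labels do not say what L1 and L2 are. The P5 positive group share was 56.9% (95% 56.7% to 57.0%), the E14.5 positive share 42.9% and the E14.5 negative share 35.9%.

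These shares count reads and are not corrected for length. Per kilobase of transcript they were 61.5%, 47.6% and 40.4% in the same order of groups. Tnni3 took most of the troponin I reads in 4 positive and 3 negative cells at E14.5 and in 3 of the 6 P5 positive cells.

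Troponin C was also higher at P5. Tnnc1 codes for the calcium-binding subunit of slow and cardiac muscle. It ran from 76.4 to 1190.0 CPM in E14.5 positive cells (median 297) and from 44.6 to 842 CPM in E14.5 negative cells (median 409). At P5 it was 247 CPM in L1P5, 1021 in L2P3, 2526 in L2P7, 3259 in L2P8 and 3965 in L2P10, with 3.87 in L2P12. The first of these cells lay inside the E14.5 range, the second inside the positive cells' range only, and the other 3 above both. The group log2 ratio was 1.81, or 2.21 in cardiomyocyte-led cells, and 2.42 without G27, which held 50.5% of the Tnnc1 reads of the E14.5 positive cells.

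Nisch, the antisense neighbour, had 53.3 to 283 CPM in E14.5 positive cells, and 0, 26.1, 75.1, 572 and 149 CPM in the 5 P5 cells in the order above. In L1P5, with Nisch at 0, Tnnc1 was 247 CPM.

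Cardiac actin was near level between ages. Actc1 is the main actin of the mouse heart muscle cell. It ran from 5239 to 18161 CPM in E14.5 positive cells (median 9769) and from 6070 to 16487 CPM in E14.5 negative cells (median 10505). The P5 positive cells had 8627 CPM in L1P5, 16764 in L2P3, 12307 in L2P7, 13472 in L2P8, 24450 in L2P10 and 31.2 in L2P12. Only L2P10 exceeded the E14.5 range, and the group log2 ratio was 0.09, or 0.49 over cardiomyocyte-led cells.

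Skeletal actin was low and patchy. Acta1 was absent or nearly so in most cells. Any read of it was found in 7 of the 10 positive and 5 of the 11 negative cells at E14.5 and in 5 of the 6 P5 positive cells, and 1, 5 and 2 cells reached 10 CPM in the same order. One cell per group held most of it: 145.7 CPM in G10, 72.2 in N30 and 169 in L2P10, which were 82.9%, 53.0% and 82.7% of their groups' reads. The group log2 ratio for P5 positive over E14.5 positive cells was 1.31, or 1.71 in cardiomyocyte-led cells, and it became -1.01 without L2P10 and 3.77 without G10, so its direction rested on 1 cell. Of the reads of Actc1 and Acta1 together, Acta1 made 0.0999% in E14.5 positive, 0.119% in E14.5 negative and 0.233% in P5 positive cells, or 0.0184% without G10, 0.0607% without N30 and 0.0561% without L2P10.

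Both genes hold a CArG box, the element bound by serum response factor, in the 250 bases before their RefSeq start, as do 1.47% of 32851 promoter windows. The search covered both strands and took the strict form, with A or T at all 6 inner bases. With 1 inner base of C or G allowed, Acta2 held matches as well, 84 and 34 bases before its start, as did 8.59% of all windows. The 150 bases before each start are printed with the strict box in capitals (RefSeq, GRCm38.p6, minus strand). Actc1 is at chr2:114052876-114053025 and Acta1 at chr8:123894776-123894925.
Actc1: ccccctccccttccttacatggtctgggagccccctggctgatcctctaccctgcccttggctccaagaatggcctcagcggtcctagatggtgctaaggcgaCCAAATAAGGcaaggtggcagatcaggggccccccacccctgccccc
Acta1: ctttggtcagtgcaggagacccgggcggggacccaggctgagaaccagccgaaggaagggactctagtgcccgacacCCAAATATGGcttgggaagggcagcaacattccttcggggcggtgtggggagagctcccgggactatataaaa

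The strict box began 47 bases before the start of Actc1 and 73 bases before that of Acta1. The levels of the pair differed widely in the same cells, as given above. The letters CATTCC, searched on both strands as the muscle MCAT element, were found in the windows of Tnnt2, Tnnc1, Acta1, Acta2 and Tpm1 and in 12.6% of all windows.

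Smooth muscle actin divided the E14.5 negative cells. Acta2 was 0 CPM in N3 and N7, 0.483 in N21, 6.73 in N24, 7.05 in N10, 14.3 in N8 and 59.5 in N28, and then 512 in N5, 618 in N30, 1428 in N23 and 1460 in N25. No E14.5 negative cell lay between 59.5 and 512 CPM. In E14.5 positive cells it was 3.12 CPM in G28 and 202 to 1539 CPM in the other 9. At P5 it was 57.4 CPM in L1P5, 159 in L2P3, 369 in L2P7, 1170 in L2P8, 526.2 in L2P10 and 0.711 in L2P12.

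The group levels of Acta2 hid this division, at 538, 480 and 490 CPM in E14.5 positive, E14.5 negative and P5 positive cells. The medians were 347, 14.3 and 264 CPM. Among the 3 muscle actins Acta2 made 4.57%, 4.65% and 3.93% of reads in these groups, with single cells from 0% to 18.7%, the latter in N23. Of the Acta2 reads in P5 positive cells, 69.4% came from L2P8, without which the log2 ratio over E14.5 positive cells went from -0.13 to -1.35. Without L2P12 it was 0.27 (95% 0.253 to 0.286), so its direction differed with the cell left out.

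Of 7 smooth muscle and pericyte markers, 5 are in the table (Myh11 is among those that are not). They summed to 20.1 to 531 CPM in E14.5 positive and 2.57 to 1069 CPM in E14.5 negative cells. In negative cells 3 of them reached 10 CPM in some cell and Kcnj8 was at 0 in all. N3 and N7, with Acta2 at 0, had 1069 and 805 CPM of these markers, and N21, with Acta2 at 0.483 CPM, had 2.57. The cells high in Acta2, N5, N30, N23 and N25, had 286, 307, 301 and 132 CPM. The part of these markers in the Acta2 levels was not tested.

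**Figure D3:**
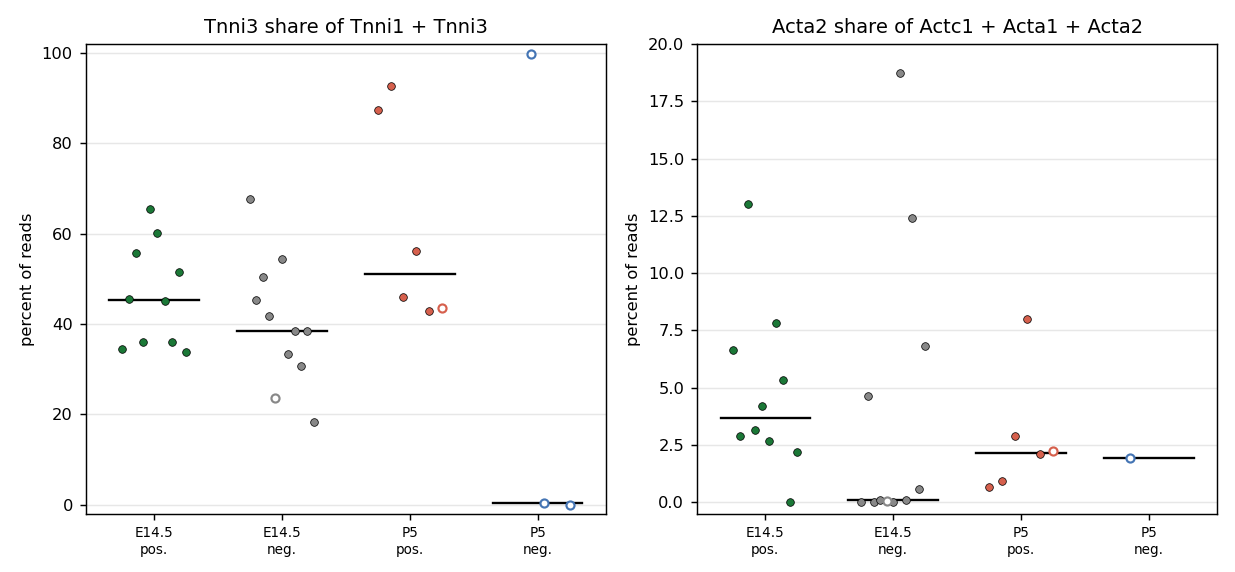
Left, Tnni3 as a percent of Tnni1 and Tnni3 reads in each cell; right, Acta2 as a percent of Actc1, Acta1 and Acta2 reads; cells with fewer than 50 reads in the set are left out, the line is the median and open circles are cells led by other markers. P5 positive cells fall at 87.3% and 92.7% or at 43.0% to 56.2% on the left, and 7 of the 11 E14.5 negative cells lie at or below 0.563% on the right.

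Tpm1, the main tropomyosin of the heart, was higher at P5. It ran from 633 to 4095 CPM in E14.5 positive cells (median 1581) and from 800 to 8901 CPM in E14.5 negative cells (median 2604). At P5 it was 1722 CPM in L1P5, 3137 in L2P3, 6948 in L2P7, 20205 in L2P8, 13448 in L2P10 and 369 in L2P12. The cells that were low in Tnni1, L1P5 and L2P3, were inside the range of the E14.5 positive cells, and the other 3 were above it. The group log2 ratio was 2.19, or 2.58 in cardiomyocyte-led cells, and 1.25 without L2P8, which held 63.1% of the reads.

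Set against Tnnt2 in the same cell, Tpm1 gave 0.328 to 0.911 reads per Tnnt2 read in E14.5 positive cells and 0.992 to 2.74 in the 5 cardiomyocyte-led P5 cells, without overlap. In E14.5 negative cells led by cardiomyocyte markers the ratio ran from 0.400 to 2.21, the latter in N3, the cell with the least Tnnt2, and so overlapped P5. For Tnnc1 the ratio was 0.0605 to 0.202 in E14.5 positive and 0.178 to 0.809 in P5 cells, which overlapped at L1P5. This measure does not depend on the totals by which CPM is scaled.

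Tpm2, the tropomyosin of slow skeletal and smooth muscle, had low levels. It had 0 to 31.6 CPM in E14.5 positive, 0 to 15.1 in E14.5 negative and 0 to 30.1 in P5 positive cells, with medians of 3.37, 3.22 and 0.0399 CPM. At P5, 97.7% of the reads came from L2P10. The log2 ratio for P5 positive over E14.5 positive cells was -1.33, and it was -6.54 without L2P10. It was no longer 2-fold in cardiomyocyte-led cells, at -0.92, nor without L2P8, at -0.83, nor without G25, at -0.94. Of the reads of Tpm1 and Tpm2 together, Tpm2 made 0.514%, 0.160% and 0.0451% in the 3 groups.

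Tagln, which codes for the smooth muscle protein transgelin, exceeded 10 CPM in 2 positive and 4 negative cells at E14.5 and in 1 of the 6 P5 positive cells. Its highest cells were N25 at 155 CPM, N10 at 30.8 and N5 at 25.9. At P5, 99.8% of its reads came from L2P12, the cell led by endothelial markers, and the 5 cardiomyocyte-led cells held 1 read in all. The log2 ratio for P5 positive over E14.5 positive cells was 1.22 with L2P12 and -7.30 without it (95% -12.6 to -4.81, from that 1 read against 357).

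In the comparison of P5 positive with E14.5 positive cells, 6 of 10 members were at least 2-fold higher and 1 was at least 2-fold lower. Over all genes tested, 30.3% were at least 2-fold higher and 40.7% lower. In cardiomyocyte-led cells alone, 5 members were higher (Tnni1, Tnni3, Tnnc1, Acta1 and Tpm1) and 1 was lower (Tagln). There 24.5% of all genes were higher and 48.1% lower. The members' median log2 ratio was 1.27 and that of all genes -0.39, or 1.10 and -0.89 in cardiomyocyte-led cells.

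The members share their denominator with all other genes, so their CPM also moves with what else a cell holds. Together they made 1.07% to 3.20% of reads in E14.5 positive cells and 0.0440% to 5.65% in P5 positive cells. Other scalings moved every gene by one amount. The log2 ratio for P5 positive over E14.5 positive cells was 0.16 higher with TMM factors and 0.38 higher with DESeq2 size factors.

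**Figure D4:**
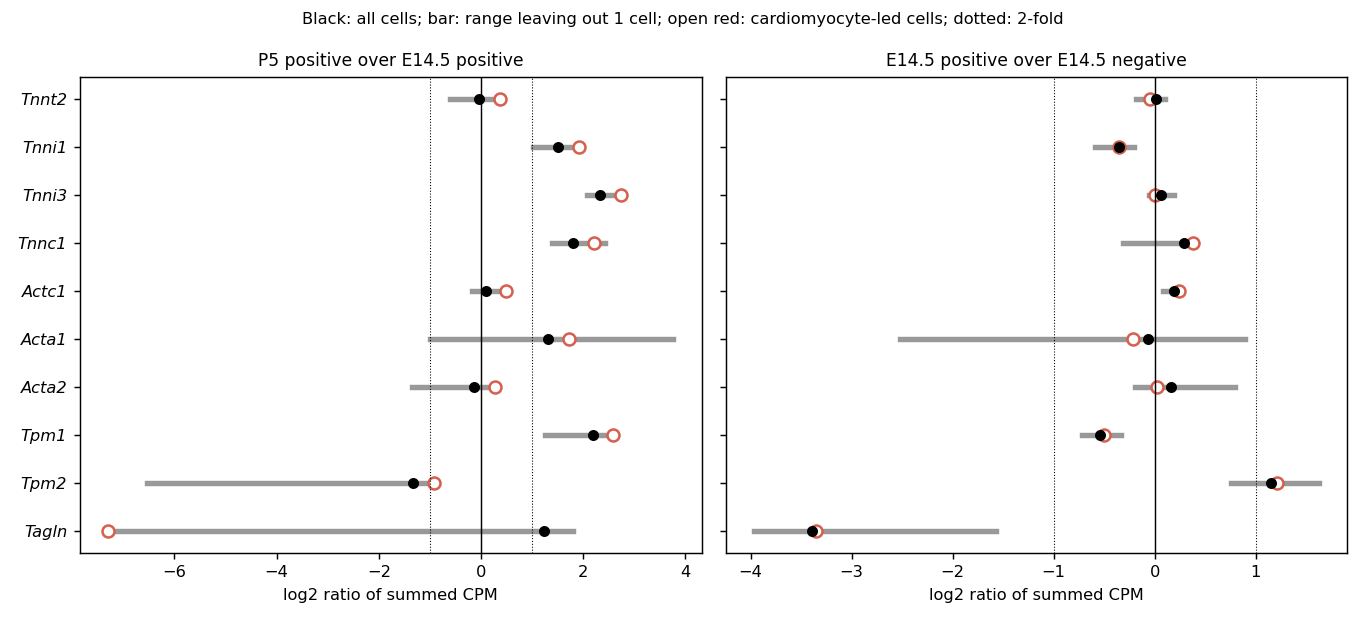
Log2 ratio of each gene of summed CPM, for P5 positive over E14.5 positive cells on the left and E14.5 positive over negative cells on the right. Black points use all cells, grey bars span the values when 1 cell is left out, open red circles use cardiomyocyte-led cells, and dotted lines mark 2-fold. Tnni1, Tnni3, Tnnc1 and Tpm1 lie right of 0 on the left for every cell left out, while the bars of Tnnt2, Actc1, Acta1, Acta2 and Tagln cross 0.

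Between mAG-hGem positive and negative cells at E14.5, 8 of 10 members were within 2-fold. The log2 ratios, positive over negative, were 0.01 for Tnnt2, or -0.04 without N10, -0.35 for Tnni1 and 0.07 for Tnni3. For Tnnc1, Actc1 and Tpm1 the ratios were 0.30, 0.19 and -0.54. For Acta2 the ratio was 0.16, with the divided cells described above. Tpm2 was higher, at 1.15, and Tagln lower, at -3.40. Over all genes, 22.5% were at least 2-fold higher and 29% lower, and the medians were 0.04 for members and -0.16 for all genes.

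The low genes rested on few cells. Tpm2 was at 0.76 without G25, and so within 2-fold. Tagln was at -1.57 without N25, which held 75.0% of the negative group's reads. Acta1, at -0.07 over all cells, was at -2.52 without G10, and Tnnc1 at -0.31 without G27. The positive and negative cells overlapped in all 10 genes.

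The cell titles at E14.5 number either from 1 to 10 or from 21 to 30, and the labels do not say what the ranges are. Positive cells 1 to 10 had less of the troponins and Tpm1 than positive cells 21 to 30. Tnnt2 was 1959 against 5712 CPM, Tnnc1 180.0 against 805 and Tpm1 1148 against 2565. Negative cells of the ranges were nearer to each other in these genes, with Tnnt2 at 3964 against 4429 CPM and Tpm1 at 3220 against 2865. In Acta2 the negative cells were further apart, at 103 against 632 CPM, where positive cells had 501 against 559. Actc1 was at 13472 against 8351 CPM in negative cells and 8730 against 12690 in positive cells. Within numbers 1 to 10, 5 members were at least 2-fold lower in positive cells (Tnnt2, Tnni1, Tnnc1, Tpm1 and Tagln) and 2 higher (Acta1 and Acta2). Acta1 rested there on G10, at 145.7 CPM, and its medians went the other way, at 4.65 CPM in positive and 13.3 in negative cells. Over all genes, 25.6% were lower and 30.7% higher within that range. Within numbers 21 to 30, 2 were lower (Acta1 and Tagln) and 1 was higher (Tpm2), against 36.7% and 23% of all genes. The medians of Acta1 in that range were 1.09 CPM in positive and 0 in negative cells.

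The P5 negative cells held little of the thin filament, and no cardiomyocyte-led cell was among them. Actc1 was at 0 to 9.91 CPM, Acta2 at 0 to 0.363 and Acta1 at 0 in all 6, which allows up to 0.0362 CPM over the group. Compared with P5 positive cells, all 10 members were at least 2-fold lower in the negative cells, where the positive group was higher for 34.2% of all genes and lower for 39.4%. Tagln rested on L2P12, without which it had 1 read in P5 positive and 4 in negative cells, too few to compare. Without that cell the other 9 members were still at least 2-fold lower in negative cells, where 31.2% of all genes were higher in positive cells and 47% lower. Actc1 differed 13948-fold, Tnnt2 77.6-fold and Tnni3 118-fold, and Acta1 was at least 770.4-fold higher in positive cells. Tpm2 differed 4.05-fold, and was lower in positive cells without L2P10, at a log2 ratio of -3.20. Compared with E14.5 negative cells, 10 of 10 members were lower, against 41.1% of all genes lower and 33.6% higher. Without N10 this was again 10 of 10, against 40.6% lower and 34.7% higher. Tnnc1 was nearest, at a log2 ratio of -1.14, which was -5.60 without L2N4 and -0.57 without L2N7. Cell type and age cannot be told apart in that comparison, nor cell type and reporter signal in the former.

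Single members nevertheless stood out in single P5 negative cells. Tnnc1 was at 3266 CPM in L2N4, a level within the P5 positive range, while the other members there were at or below 9.91 CPM, endothelial markers summed to 13278 CPM and Nisch was at 0. Tnni1 and Tpm1 were at 294 and 566 CPM in L2N12, the cell with 19501 CPM of fibroblast markers. Tnnt2 and Tnni3 were at 128 and 58.6 CPM in L2N7, with Tnni1 at 0.0704 CPM. These cells held most of what the group had: without L2N7 the log2 ratio of Tnni3 for P5 positive over negative cells went from 6.88 to 12.7 and that of Tnnt2 from 6.28 to 8.02. Without L2N12 it went from 4.73 to 7.44 for Tnni1 and from 5.90 to 7.52 for Tpm1, and without L2N4 from 3.24 to 7.70 for Tnnc1 and from 13.8 to 15.5 for Actc1. In L2N7 99.9% of troponin I reads were Tnni3, and in L2N12 0.0201% were.

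Tnnt2, the gene by which cells were accepted, was read in 5 of 6 P5 negative cells, at 0.182 to 128 CPM, and not in L2N10. The lowest of the 5 were L2N9, with 2 reads, and L2N4, with 7. In L2P12 the members had 0.0444 to 31.2 CPM apart from Tpm1 at 369 and Tpm2 at 0.

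Across the 25 cardiomyocyte-led cells the levels of Tnnt2, Tnni1, Tnnc1 and Tpm1 ran together. The Spearman rho of log2(CPM + 1) was 0.88 between Tnnc1 and Tpm1, 0.83 between Tnni1 and Tnnc1, 0.82 between Tnnt2 and Tpm1 and 0.80 between Tnnt2 and Tnni1. In the 20 such cells at E14.5 alone these were 0.84, 0.88, 0.88 and 0.77. Tnni3 was nearest to Tpm1 (0.77) and Actc1 (0.71), at 0.68 to Tnnc1 and at 0.54 to Tnni1. Lowest among the troponin pairs was Tnni3 with Tnnt2, at 0.46. Acta2 was near 0 with Actc1 (0.01) and Tnni3 (-0.03), and Tagln lay between -0.16 and 0.42 with the others.

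These values describe the cells and carry no test. Cells share their library's total, the amplification and, at E14.5, the title ranges given above.

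**Figure D5:**
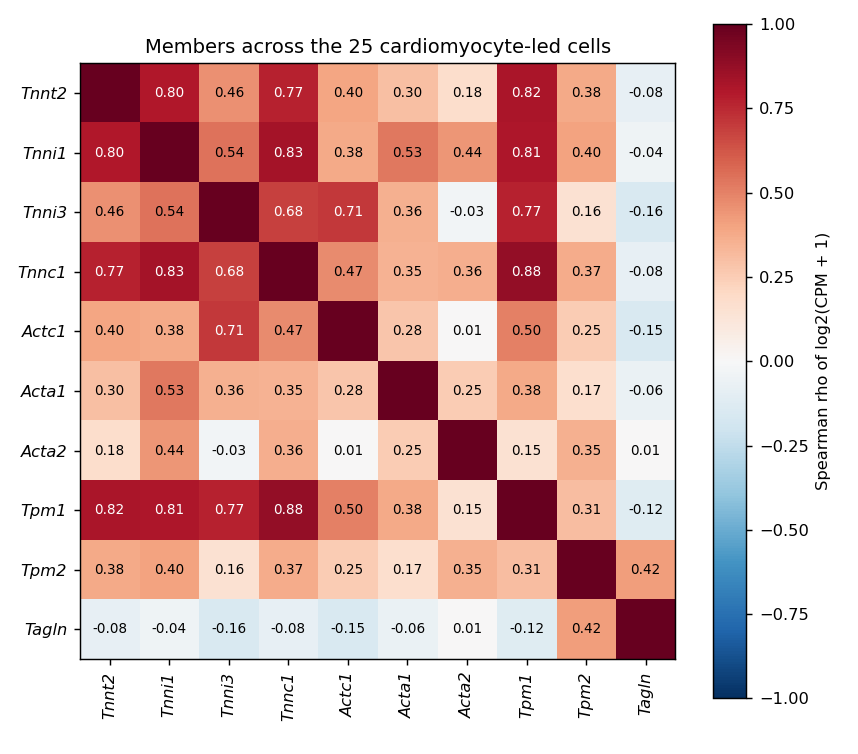
Spearman rho between pairs of genes over the 25 cardiomyocyte-led cells, from log2(CPM + 1). Tnnt2, Tnni1, Tnnc1 and Tpm1 have rho from 0.77 to 0.88 with each other, while Acta2 and Tagln are near 0 with Actc1 and Tnni3.

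By the same measure over all 33 cells, the genes outside the members most like Tnni3 among 8128 were Cox7a1 (0.93), a heart and muscle subunit of cytochrome c oxidase, Pgam2 (0.92), the muscle phosphoglycerate mutase, and Eno3 (0.90), the muscle enolase. Over the 25 cardiomyocyte-led cells Cox7a1 (0.85) and Pgam2 (0.84) remained the first and the second. Most like Tnni1 over all 33 cells were the myosin light chains Myl9 (0.90) and Myl2 (0.88), and Macrod1 (0.84). None of these was among the first 3 over cardiomyocyte-led cells. Those were Psmb5 (0.92), Dctn3 (0.90) and Eif4ebp1 (0.90), among 7289 genes. Over all 33 cells Actc1 was most like Cav3 (0.79), muscle caveolin, and Acta2 most like Stk39 (0.76). Neither was among the first 3 over cardiomyocyte-led cells, where Rilp (0.73) was first for Actc1 and Med19 (0.75) for Acta2.

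Of 40 other genes of the thin filament and its assembly, 38 were in the table and 35 could be compared between P5 positive and E14.5 positive cells. Among these, 11 were at least 2-fold higher and 14 lower, with a median log2 ratio of -0.66, against 30.3% higher, 40.7% lower and a median of -0.39 over all genes. These shares were near those of all genes. Without L2P12, the endothelial-led cell, 4 of 34 were higher and 19 lower, with a median of -1.20, against 24.5%, 48.1% and -0.89 over all genes.

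The 2 highest of these genes with at least 50 CPM in a group were Smtn, which codes for the smooth muscle protein smoothelin, and Tagln2, the transgelin of non-muscle cells. Smtn was at 54.1 against 1.73 CPM, a log2 ratio of 4.97, or 3.99 without L2P12, where it was at 27.4 CPM. Tagln2 was at 540.4 against 18.7 CPM, a log2 ratio of 4.85, but 0.07 without L2P12, which had 2151 CPM of it.

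The 2 lowest were Nebl, which codes for the thin filament protein nebulette, at 0.282 against 80.2 CPM (-8.15), and Tnnt1, slow skeletal troponin T, at 75.3 against 577 CPM (-2.94). Nebl was 0 to 9.04 CPM in P5 positive cells and 0 to 225 CPM in E14.5 positive cells, which overlapped. Tnnt1 was at -0.38 without G27, which had 2067 CPM. With L2P12 left out the 2 lowest were Nebl at -7.75 and Tpm4 at -5.87.

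Tpm4 and Tpm3, the latter chosen after its values were seen, are tropomyosins of many cell types and turned with L2P12. The log2 ratios of Tpm3 and Tpm4 were 2.06 and 2.23 with it and -1.44 and -5.87 without it. Nexn, which codes for the actin-binding protein nexilin, was at 773 against 4776 CPM, a log2 ratio of -2.63, and stayed between -2.95 and -2.22 when any 1 cell was left out.

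Between E14.5 positive and negative cells, 5 of 34 were higher and 4 lower, with a median of -0.07, against 22.5%, 29% and -0.16 over all genes. Without N10, in which fibroblast markers exceeded cardiomyocyte markers, the counts were again 5 and 4, against 24.1% and 27.6%. The highest were Tnnt1 at 2.93, or 0.37 without G27, and Tpm4 at 1.06, or 0.20 without G27 and 2.43 without N10. The lowest were Tmod3, a tropomodulin that caps filament ends, at -0.79, or 0.44 without N23, and Cald1, caldesmon, at -0.74, or 0.19 without N21. Without N10 the 2 lowest were Fhod3, a formin of the sarcomere, at -0.81 and Myocd, which codes for the serum response factor coactivator myocardin, at -0.58.

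Between P5 positive and negative cells, 16 of 31 were higher and 11 lower, against 34.2% and 39.4% of all genes. Without L2P12 these were 14 and 14 of 30, against 31.2% and 47%. The highest were the sarcomere genes Fhod3 and Lmod2, a leiomodin, each with 1 read over all P5 negative cells, at log2 ratios of 14.1 (95% 11.6 to 19.4) and 12.5 (95% 10.1 to 17.8). The lowest were Cald1 at -5.14 and Tpm3 at -2.08. The order rested on L2P12: without it the lowest were Tpm4 at -10.0 and Tmod3 at -9.21, with Tpm3 at -5.58 and Cald1 at -4.997. Between P5 and E14.5 negative cells, 10 of 32 were higher, led by Tagln2 at 5.30 and Tpm4 at 5.22, or 6.64 and 6.596 without N10. A further 16 were lower, led by Fhod3 at -15.1 and Lmod2 at -13.8, and over all genes 33.6% were higher and 41.1% lower. Tpm3 and Tpm4, the tropomyosins of many cell types, were higher in the P5 negative cells, where the 10 members were lower.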

How the data were processed

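The deposited table holds raw read counts per gene for 33 cells, made by the authors. Per the submitters' processing notes, CASAVA 1.8.2, STAR 2.4.0j, HTSeq 0.6.1p1 and the build mm10 were used, with no roles stated. The annotation, strand setting and use of molecular identifiers are not given in the sources used here. No gene row was dropped from the totals, and 1 row shares its name with another.

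Each GEO sample is 1 cell, so counts were summed per group (CPM, exact Poisson interval). Log2 ratios and shares have exact Clopper-Pearson intervals at 95%. Called means 2-fold with at least 10 counts over both groups, and a group without a count was set to 3 counts over the group. A cell's share needed at least 50 reads. Likeness used genes of at least 10 CPM in at least 5 cells. No 2 cells were alike enough to be 1 library (highest r 0.867, G1 and G2).

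The members and lists were chosen with earlier results of these data known. All members are named. Of other pathway genes, those of at least 50 CPM with the 2 highest and 2 lowest ratios per comparison are named, and any other was chosen after its values were seen. Coordinates and coding sequences come from GENCODE M21 (GRCm38, the assembly that mm10 denotes), and promoters from RefSeq (GRCm38.p6), which held 9 of 10 members.

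Alternatives were equal weights for cells, medians, each cell left out, cardiomyocyte-led cells, title ranges, edgeR 4.0.16 TMM factors, DESeq2 1.42.0 size factors, totals without members, 4-fold, no count minimum, reads per kb and at least 500 reads. Counts of genes called without L2P12 or N10, shares of all genes within title ranges and the looser CArG search were added after seeing the data. Python 3.11.15, numpy 2.4.6, pandas 2.3.3, scipy 1.17.1, Biopython 1.88 and R 4.3.3 were used. The calculation was tested on simulated data.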

Additional observations from a re-analysis of the deposited data

Results flagged for a closer look

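Within groups of 6 or 10 cells, 15 of 38 sets of values had an end cell apart from the rest by Dixon's limit at 95%. The Tpm2 share in P5 negative cells had 4 cells with enough reads. For normally spread, independent sets the limit would flag about 1 in 20, or 1.9 sets. These values are skewed and often 0, and levels and shares use the same genes. The number of flags therefore cannot be set against chance and serves only to list cells. The 11 E14.5 negative cells were not tested.

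In E14.5 positive cells, G10 had 145.7 CPM of Acta1, with the next cell at 9.25, and 1.16% of Actc1 and Acta1 reads, with the next at 0.176%. In P5 positive cells, L2P10 had 169 CPM of Acta1 (next 27.8), 30.1 CPM of Tpm2 (next 0.525), an Acta1 share of 0.686% (next 0.225%) and a Tpm2 share of 0.223% (next 0.0167%). L2P8 had an Acta2 share of 7.99% (next 2.90%). L2P12, led by endothelial markers, had 21.5 CPM of Tagln (next 0.0656).

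In P5 negative cells, L2N12 had 294 CPM of Tnni1 (next 62.1), 566 CPM of Tpm1 (next 118), 5.10 CPM of Tpm2 (next 0) and a Tpm2 share of 0.893% (next 0%). L2N7 had 58.6 CPM of Tnni3 (next 2.52). L2N4 had 3266 CPM of Tnnc1 (next 29.6) and 9.91 CPM of Actc1 (next 1.18). Their causes were not tested.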

How the results depend on the processing

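No paired analysis was possible because each group is 1 sample and no test was made. For P5 positive over E14.5 positive cells, the 6 members at least 2-fold higher were 4 by the mean or the median over cells, 5 in cardiomyocyte-led cells, 5 to 6 without 1 cell and 2 at 4-fold, and the 1 lower became 0 with the mean over cells, DESeq2 size factors or 4-fold, and 0 to 2 when 1 cell was left out. For E14.5 positive over negative cells, the 1 higher became 0 with the mean over cells or 4-fold, 2 within title numbers 1 to 10, and 0 to 1 without 1 cell. The 1 lower became 5 within numbers 1 to 10, 2 within 21 to 30, and 1 to 2 without 1 cell. For P5 positive over negative cells, 0 members were lower, or 0 to 1 without 1 cell.

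The Tnni3 share of troponin I reads in E14.5 positive cells (42.9%) became 46.4% by the mean over cells, 45.3% by the median (also with at least 500 reads), 47.6% per kb, 49.1% within numbers 1 to 10, 41.0% within 21 to 30 and 41.0% to 46.1% without 1 cell. In E14.5 negative cells (35.9%) it became 40.3% by the mean, 38.6% by the median (also with at least 500 reads), 40.4% per kb, 37.0% in cardiomyocyte-led cells, 40.3% within 1 to 10, 33.5% within 21 to 30 and 34.4% to 38.7% without 1 cell. In P5 positive cells (56.9%) it became 61.4%, 51.1% and 61.5% by mean, median and per kb, 56.2% by the median with at least 500 reads, and 50.6% (without L2P3) to 62.6% (without L2P10). In P5 negative cells (22.96%) it ran from 0.353% without L2N7 to 71.0% without L2N12.

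Of the ratios of at least 2-fold, these turned in direction. For P5 positive over E14.5 positive cells, Acta1 was -1.01 without L2P10 and 3.77 without G10, and Tagln was -7.30 without L2P12, the same as in cardiomyocyte-led cells, and 1.79 without G10. Tpm2 was -0.82 for E14.5 positive over negative cells within numbers 1 to 10, and, for P5 positive over negative cells, -3.20 without L2P10 to 6.53 without L2N12. Tnnc1 was 0.26 for P5 over E14.5 negative cells by the mean over cells. The cause was not tested. Of ratios within 2-fold, 3 of 3 members for P5 positive over E14.5 positive cells and 7 of 8 for E14.5 positive over negative cells changed sign in some alternative. Among them were Acta2 and Tnnt2, at 0.27 and 0.37 in cardiomyocyte-led cells, and Tnnc1, at -0.31 without G27. A count of 0 allows 0.0780 to 1.18 CPM, by cell.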
